A study of Homo sapiens with 18 samples.

Results

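The effect of silencing PBRM1 in BT-549 cells was set beside the effect of silencing MUC1 in MDA-MB-436 cells, gene by gene. Both are triple-negative breast cancer (TNBC) lines, which lack the estrogen, progesterone and HER2 receptors that guide other breast cancer treatment; MDA-MB-436 cells carry a BRCA1 mutation. The comparison used 12 of the 18 RNA-seq libraries of the study, in 4 groups of 3, and 11748 of the 25509 genes listed in both tables. The other libraries, of BT-549 cells with IRF1 silenced and of their own control cells, were used only for a closing comparison. A gene entered when it reached at least 1 TPM (transcript abundance corrected for transcript length and scaled to the library) in 3 or more of the 6 libraries of each experiment.

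The shPBRM1 group consisted of BT-549 cells that stably expressed a short hairpin RNA (shRNA) against PBRM1, and its control group of BT-549 cells with a stable control shRNA. The control columns of that table carry only the name of the line and were assigned to this group because the labels give no other group for the experiment. Both were cultured with 10% serum and insulin at 10 µg/ml. In the DOX+ group, MDA-MB-436 cells with a tetracycline-inducible MUC1 shRNA (tet-MUC1shRNA) were treated with doxycycline (DOX) at 500 ng/ml. The DOX- group was the same line with 0.1% DMSO as vehicle, and both were cultured in 10% serum without insulin. Each target was silenced with a single hairpin in a single line, the replicates were triplicate cultures, and p-values therefore measure the spread among such cultures. No group with a control hairpin and DOX was analysed here, so the MUC1 hairpin and the drug cannot be told apart. For the MDA-MB-436 libraries the sources used here do not give the duration of DOX. The target, the cell line, the way of silencing and the culture medium all differ together between the experiments, and a difference between the effects cannot be assigned to any of them.

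PBRM1, also known as BAF180, is a protein with several bromodomains that bind acetylated histones, and it belongs to PBAF, a SWI/SNF complex that moves nucleosomes and opens chromatin. MUC1 encodes a transmembrane mucin that is cleaved into an extracellular subunit and MUC1-C, a subunit that crosses the membrane, reaches the nucleus and associates with transcription factors. In the interferon (IFN) pathway, factors that include STAT2 and IRF9 bind an IFN-stimulated response element (ISRE) in the promoters of IFN-stimulated genes (ISGs), and IRF1 binds similar elements. The study examined MUC1-C, PBRM1 and IRF1 as regulators of this pathway in TNBC cells. It also silenced MUC1-C in BT-549 cells, and those data were not used here. From RNA-seq of both lines with MUC1-C silenced it reports IRF1 target genes common to them. The question addressed here is whether the genes that respond to PBRM1 loss in one TNBC line are those that respond to MUC1 loss in another.

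The authors deposited TPM values, in which short noncoding RNAs took 75.7% to 79.2% of each library of the PBRM1 experiment and 12.1% to 15.2% of each MDA-MB-436 library. In the libraries of the IRF1 experiment, also of BT-549 cells, they took 84.8% to 88.5%. These RNAs were removed and every library was rescaled to a common total, and all levels below are on this scale. The tables were normalized apart, so a level in BT-549 cells is not strictly comparable with a level in MDA-MB-436 cells, and every fold was formed within its own table. TPM keeps no record of depth; the mean normalized counts in the authors' tables summed to 27111321 for the PBRM1 experiment and 11858741 for the MUC1 experiment. Replicates correlated at 0.996 to 0.998 within the BT-549 groups and at 0.993 to 0.994 within the MDA-MB-436 groups. ESR1 and PGR were at or near 0 in all groups. ERBB2, which encodes HER2, was not: it averaged 23.02 TPM with shPBRM1 and 26.43 TPM in control cells. In MDA-MB-436 cells ERBB2 averaged 18.61 TPM with DOX and 21.95 TPM without it. VIM, a mesenchymal filament found in such lines, averaged 1748 TPM with shPBRM1 and 1553 TPM in control cells. It averaged 1172 TPM in DOX+ cells and 2084 TPM in DOX- cells. Of 18 leukocyte and erythroid markers only CD68 was kept in both tables. The summed level of that list was 54.6 to 57.2 TPM with shPBRM1 and 149 to 154 TPM in control cells, and 122 to 134 TPM in DOX+ cells and 125 to 134 TPM in DOX- cells. PTPRC, CD3E and HBB, which define blood cells, were at or near 0. CD14, a monocyte marker, was kept in the MDA-MB-436 table alone and averaged 10.3 TPM in DOX+ cells and 5.004 TPM in DOX- cells, and its part in the DOX+ effect was not tested. The endothelial markers were low, and their sum did not exceed 10.8 TPM in any library.

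Each hairpin lowered its own target, and each target was also lower under the other silencing. PBRM1 (chr3:52545367-52685913 in RefSeq, GRCh38.p14) was 13.3, 11.9 and 12.2 TPM in the shPBRM1 libraries, against 53.4, 51.5 and 53.6 TPM in control libraries. It was 17.9, 16.9 and 17.1 TPM in DOX+ libraries, against 27.3, 28.1 and 25.4 TPM in DOX- libraries. The groups did not overlap in either line, and the log2 fold was -2.003 ± 0.052 (SE, adjusted p = 1.2e-11) with shPBRM1 and -0.61 ± 0.057 (adjusted p = 4.5e-05) with DOX+. MUC1 (chr1:155185824-155192915) was 4.18, 3.09 and 3.12 TPM in DOX+ libraries, against 7.28, 5.65 and 6.54 TPM in DOX- libraries, a log2 fold of -0.75 ± 0.131 (adjusted p = 0.0016). In BT-549 cells MUC1 was 79.2, 75.7 and 79.4 TPM with shPBRM1, against 131, 118 and 117 TPM in control cells, a log2 fold of -0.64 ± 0.047 (adjusted p = 1.7e-07). The MUC1 folds differed by 0.11 ± 0.131 between the experiments (adjusted p = 0.47). MUC1 mRNA thus fell in both experiments, and its level was low in MDA-MB-436 cells.

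Across all 11748 genes the effects were almost unrelated. The log2 folds (as log2(TPM + 1), a scale that compresses the changes of weakly expressed genes) had a Pearson r of 0.0049 and a Spearman rho of 0.030. The folds had the same sign for 6021 genes, or 51.3%. These are descriptions across genes, which are not independent replicates. The shPBRM1 effect was the wider of them, with an SD of 0.579 across genes against 0.374 for the DOX+ effect, and the median log2 fold was -0.15 with shPBRM1 and 0.01 with DOX+. The shPBRM1 median was -0.04 with the TPM as deposited, 0.03 with median-ratio scaling and 0.07 with quantile scaling, so the balance of small BT-549 changes depends on the scaling.

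Concordance was as low among genes at higher levels. Among the 5477 genes with a mean of at least 20 TPM in both tables r was -0.042, and 50.2% had the same sign. For single silenced libraries, each fold was taken over the mean of the reference libraries of that experiment. The fold of each shPBRM1 library was set against that of each DOX+ library, and the 9 values of r ran between -0.012 and 0.020. The same single-library folds correlated at 0.969 to 0.977 with each other within the PBRM1 experiment and at 0.859 to 0.883 within the MUC1 experiment. The folds of an experiment share the same reference mean, which can raise these values, so they do not measure how far each effect repeats independently. Agreement in sign did not follow the size of the shPBRM1 effect in a steady order: the share was 50.8% of 5434 genes with an absolute log2 fold under 0.5, 52.4% of 2383 genes between 0.5 and 1, 46.6% of 595 genes between 1 and 2, and 54.7% of 148 genes above 2, among genes that passed the test. Leaving out the 106 genes of the IFN and major histocompatibility complex (MHC) class I lists gave r = -0.00032.

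**Figure D1:**
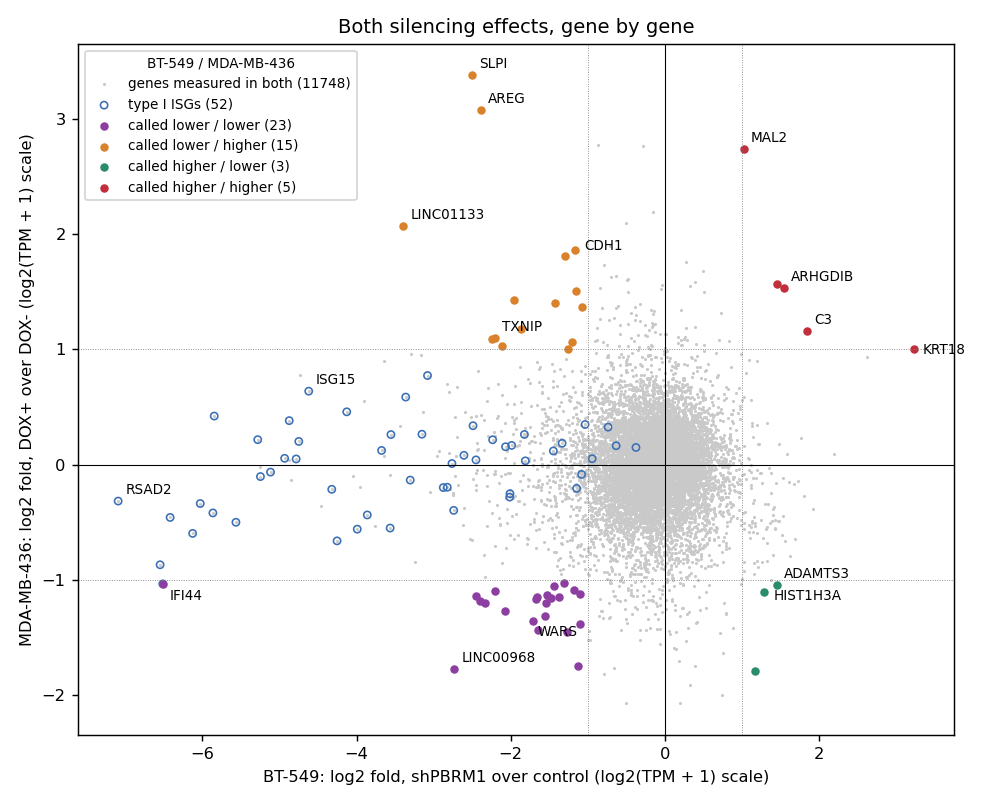
Log2 fold of each gene with shPBRM1 over control in BT-549 cells (x axis) and with DOX+ over DOX- in MDA-MB-436 cells (y axis), both on the log2(TPM + 1) scale. Grey points are the 11748 genes measured in both tables, open circles are 52 type I ISGs, filled circles are the 46 genes called in both, and dotted lines mark an absolute log2 fold of 1; the ISGs spread far to the left and lie close to 0 on the vertical axis.

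Genes were called when the adjusted p was under 0.05 and the absolute log2 fold above 1. With shPBRM1, 642 of the shared genes were called lower (5.46%) and 101 higher (0.860%). With DOX+, 145 were called lower (1.23%) and 98 higher (0.834%). At the adjusted p alone, 5819 genes fell (49.5%) and 2741 rose (23.3%) with shPBRM1, whereas 3004 fell (25.6%) and 3185 rose (27.1%) with DOX+. The lower share of the 743 shPBRM1 calls was 86.4%, and it was 77.1% with TPM as deposited, 71.6% with median-ratio scaling and 65.7% with quantile scaling. Genes called with a group mean under 1 TPM numbered 116 of 743 with shPBRM1 and 21 of 243 with DOX+.

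Only 46 genes were called in both experiments, and the libraries of the silenced and reference groups did not overlap in either table for any of them. Such a lack of overlap was not particular to them, since it was also found for 4899 of the 10808 genes called in neither experiment. They comprised 23 genes that were lower in both, 15 that were lower with shPBRM1 and higher with DOX+, 3 that were higher with shPBRM1 and lower with DOX+, and 5 that were higher in both. The 23 genes lower in both were 3.58% of the genes called lower with shPBRM1 and 15.9% of those called lower with DOX+. The 15 genes of the second group were 2.34% of the genes called lower with shPBRM1 and 15.3% of those called higher with DOX+. The genes called lower with shPBRM1 were thus found about as often among the DOX+ calls in either direction, and the 3.58% and 2.34% stand beside backgrounds of 1.23% called lower and 0.834% called higher with DOX+. The 15.9% and 15.3% stand beside the 5.46% of all genes that were called lower with shPBRM1. Without control library a, b or c of BT-549 the first count was 15, 16 and 14. Of the 23 genes, 9 were under 1 TPM in all shPBRM1 libraries, and such genes cannot reach 1 TPM in 3 libraries once a control library is removed. At the adjusted p alone, 1531 genes fell in both, 1469 fell with shPBRM1 and rose with DOX+, 789 rose with shPBRM1 and fell with DOX+, and 844 rose in both. The calls closest to the threshold were TENM2 (log2 fold -1.26 with shPBRM1 and 1.01 with DOX+), KRT18 (3.23 and 1.01) and MAL2 (1.02 and 2.74); just outside were HIST1H2BB (1.38 and -0.998), LRCH2 (-0.99 and -1.52) and HIST1H3I (0.99 and -1.04).

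The difference between the effects was tested directly, as the shPBRM1 fold minus the DOX+ fold in a joint fit of the 12 libraries. It passed at the adjusted p for 7699 genes (65.5%). With an absolute difference above 1 as well, 931 genes were more negative with shPBRM1 (7.92%) and 343 more positive (2.92%). This split depended on the scaling, with 487 and 310 for TPM as deposited, 658 and 527 for median-ratio scaling and 579 and 571 for quantile scaling. Among the 46 genes called in both, the difference passed for 16 of the 23 that were lower in both, for all 15 and all 3 with opposite directions, and for 3 of the 5 that were higher in both.

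WARS, the tryptophanyl-tRNA synthetase that is also induced by IFN-gamma, fell in both lines. WARS (chr14:100333790-100376327) was 293, 274 and 274 TPM with shPBRM1, against 829.7, 818 and 833 TPM in control cells. It was 49.5, 53.1 and 48.1 TPM in DOX+ cells, against 130.3, 124 and 126 TPM in DOX- cells. The silenced libraries were below every reference library in both lines, with a log2 fold of -1.56 ± 0.036 (adjusted p = 4.2e-12) for shPBRM1 and -1.32 ± 0.044 (adjusted p = 2.3e-07) for DOX+. The effects still differed, by -0.24 (adjusted p = 0.0018). Among the 9 genes that the study follows, WARS was the single gene called in both.

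Other genes lower in both included a growth factor and a receptor. CSF1, the growth factor of macrophages (chr1:109910506-109930992), was 36.9, 38.4 and 36.0 TPM with shPBRM1, against 110.4, 111 and 108 TPM in control cells. It was 16.1, 16.2 and 15.6 TPM in DOX+ cells, against 35.1, 39.6 and 39.6 TPM in DOX- cells. Neither pair of groups overlapped, and the log2 folds were -1.54 with shPBRM1 and -1.20 with DOX+ (adjusted p of the difference = 6.4e-04). S1PR3, a receptor for sphingosine 1-phosphate, was 3.79, 3.64 and 3.78 TPM with shPBRM1, against 23.6, 22.2 and 23.1 TPM in control cells. In MDA-MB-436 cells it was 17.2, 17.2 and 17.5 TPM with DOX, against 39.4, 44.9 and 38.9 TPM without it. Its log2 folds were -2.34 and -1.20, so the shPBRM1 effect was the larger by 1.14 in size.

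For some genes lower in both the difference between the effects did not pass the test. SLC43A1, a transporter of large neutral amino acids, was 3.04, 2.81 and 3.12 TPM with shPBRM1, against 12.7, 11.3 and 10.6 TPM in control cells, a log2 fold of -1.65. It was 1.54, 1.23 and 1.38 TPM in DOX+ cells, against 5.70, 5.25 and 5.32 TPM in DOX- cells, a log2 fold of -1.43, and the difference of -0.22 did not pass (adjusted p = 0.15). All silenced libraries were below all reference libraries. COL6A1, a chain of collagen VI, had log2 folds of -1.18 with shPBRM1 and -1.09 with DOX+, and MCTP1, a calcium-binding protein with C2 domains, of -1.26 and -1.46; neither difference passed (adjusted p = 0.17 and 0.33). HMOX1, the heme oxygenase induced by oxidative stress, was 116, 119.8 and 114 TPM with shPBRM1, against 257, 255 and 242 TPM in control cells. In the other line HMOX1 was 22.5, 26.8 and 20.8 TPM with DOX, against 63.6, 61.6 and 61.7 TPM without it. Its log2 folds were -1.10 and -1.38, and their difference of 0.28 passed (adjusted p = 0.014).

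For GPNMB and COL3A1 the levels in the lines were far apart. GPNMB, a transmembrane glycoprotein of melanosomes and lysosomes (chr7:23246775-23275108), was 0.311, 0.369 and 0.396 TPM with shPBRM1, against 3.23, 3.30 and 3.84 TPM in control cells. In DOX+ cells it was 46.8, 52.3 and 59.8 TPM, against 142, 138 and 130.4 TPM in DOX- cells. The folds were -1.71 and -1.36 on the log2(TPM + 1) scale, which compresses the BT-549 change more. COL3A1, a chain of collagen III, had the opposite order of levels, with 124, 117 and 119 TPM with shPBRM1, against 348, 348 and 352 TPM in control cells. It was 0.872, 0.890 and 0.728 TPM in DOX+ cells, against 3.39, 2.54 and 3.13 TPM in DOX- cells. LINC00968, a long noncoding RNA, was 1.27, 1.78 and 1.16 TPM with shPBRM1, against 14.5, 15.7 and 14.4 TPM in control cells. Its DOX+ values were 1.38, 1.46 and 1.69 TPM, against 8.59, 7.68 and 6.66 TPM without DOX, with log2 folds of -2.73 and -1.78. GGT5, which cleaves glutathione conjugates such as leukotriene C4, had folds of -2.07 and -1.27. PTX3, a secreted pentraxin, had log2 folds of -2.45 and -1.14, and AKR1C1, an aldo-keto reductase, of -2.39 and -1.18.

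The 15 genes that were lower with shPBRM1 and higher with DOX+ included secreted and junctional proteins of epithelial cells. SLPI, a secreted inhibitor of serine proteases (chr20:45252239-45254564), was 2.001, 0.594 and 2.37 TPM with shPBRM1, against 13.3, 12.2 and 14.6 TPM in control cells. It was 59.8, 69.2 and 62.3 TPM in DOX+ cells, against 5.04, 6.53 and 4.28 TPM in DOX- cells. The groups did not overlap in either line and moved in opposite directions, with a log2 fold of -2.50 ± 0.213 (adjusted p = 5.6e-07) for shPBRM1 and 3.38 ± 0.121 (adjusted p = 3.2e-07) for DOX+. AREG, the EGF receptor ligand amphiregulin (chr4:74445136-74455005), was 1.26, 0.878 and 1.41 TPM with shPBRM1, against 9.68, 10.7 and 10.8 TPM in control cells. It was 18.1, 16.4 and 23.3 TPM in DOX+ cells, against 0.928, 2.52 and 0.982 TPM in DOX- cells. The effects on AREG differed by -5.47 on the log2 scale and those on SLPI by -5.88.

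CDH1 encodes E-cadherin, the adhesion molecule of epithelial junctions, and was low in both lines. CDH1 (chr16:68737292-68835537) was 1.04, 0.757 and 0.651 TPM with shPBRM1, against 3.14, 2.74 and 3.28 TPM in control cells. In MDA-MB-436 cells it was 3.51, 3.82 and 3.24 TPM with DOX, against 0.0504, 0.274 and 0.427 TPM without it. The log2 folds were -1.16 and 1.86, with no overlap of groups. DSP, the desmosomal protein desmoplakin (chr6:7541671-7586714), was 0.141, 0.136 and 0.242 TPM with shPBRM1, against 2.15, 2.02 and 2.28 TPM in control cells. It was 74.4, 66.7 and 70.7 TPM in DOX+ cells, against 25.8, 25.9 and 26.7 TPM in DOX- cells. AQP3, a channel for water and glycerol, was listed at 0 in 1 shPBRM1 library and was 0.191 and 0.0434 TPM in the others, against 2.99, 3.48 and 3.04 TPM in control cells. In DOX+ cells AQP3 was 46.6, 49.4 and 45.0 TPM, against 17.6, 15.7 and 17.1 TPM in DOX- cells. DSP and AQP3 were thus under 1 TPM in all shPBRM1 libraries and at much higher levels in MDA-MB-436 cells.

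Genes at higher levels in BT-549 cells were also in this group. TXNIP, an inhibitor of thioredoxin and glucose uptake, was 55.7, 54.5 and 52.6 TPM with shPBRM1, against 256, 253 and 252 TPM in control cells. It was 45.6, 47.3 and 46.1 TPM in DOX+ cells, against 20.3, 20.3 and 23.0 TPM in DOX- cells. The long noncoding RNA LINC01133 was 6.44, 6.92 and 6.79 TPM with shPBRM1, against 77.4, 79.0 and 84.1 TPM in control cells. These RNAs fell in BT-549 cells and rose in MDA-MB-436 cells, with log2 folds of -2.20 and 1.096 for TXNIP and -3.39 and 2.07 for LINC01133. NRP2, a coreceptor for semaphorins and VEGF, had log2 folds of -1.87 and 1.18, TES, a focal adhesion protein, of -1.15 and 1.51, and IGFBP6, which binds insulin-like growth factors, of -2.25 and 1.09.

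Of the 5 genes higher in both, ARHGDIB had effects of nearly equal size. ARHGDIB, an inhibitor of nucleotide exchange on small GTPases (chr12:14942015-14961601), was 21.0, 22.1 and 21.9 TPM with shPBRM1, against 5.75, 8.47 and 6.41 TPM in control cells. It was 4.20, 4.01 and 4.02 TPM in DOX+ cells, against 0.826, 0.623 and 0.816 TPM in DOX- cells. The log2 folds were 1.54 and 1.53, and their difference was 0.01 (adjusted p = 0.98); with a pseudocount of 0.1 in place of 1 that difference was -0.64. KRT18, a keratin of simple epithelia (chr12:52948855-52952906), was 136.5, 122 and 117 TPM with shPBRM1, against 13.3, 12.4 and 11.6 TPM in control cells. It was 897, 853 and 877 TPM in DOX+ cells, against 441, 425 and 442 TPM in DOX- cells. Its log2 folds were 3.23 and 1.01, and its partner keratin KRT8 had log2 folds of 2.62 and 0.93. C3, the central complement component, had log2 folds of 1.85 and 1.16, the transcription factor SOX15 of 1.45 and 1.57, and MAL2, a protein of apical transport, of 1.02 and 2.74.

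The 3 genes higher with shPBRM1 and lower with DOX+ included a histone gene. HIST1H3A, which encodes histone H3.1 (chr6:26020451-26020958), was 159.8, 147 and 147 TPM with shPBRM1, against 68.5, 67.9 and 49.3 TPM in control cells. It was 302, 288 and 229 TPM in DOX+ cells, against 579, 579 and 604 TPM in DOX- cells, and the groups did not overlap in either line. ADAMTS3, a protease that trims procollagens, was 19.8, 16.5 and 18.3 TPM with shPBRM1, against 6.13, 5.18 and 6.86 TPM in control cells. Its levels in DOX+ cells were 0.819, 0.628 and 0.342 TPM, against 2.14, 2.35 and 2.34 TPM in DOX- cells. The third was LOC100507002, an uncharacterized locus.

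**Figure D2:**
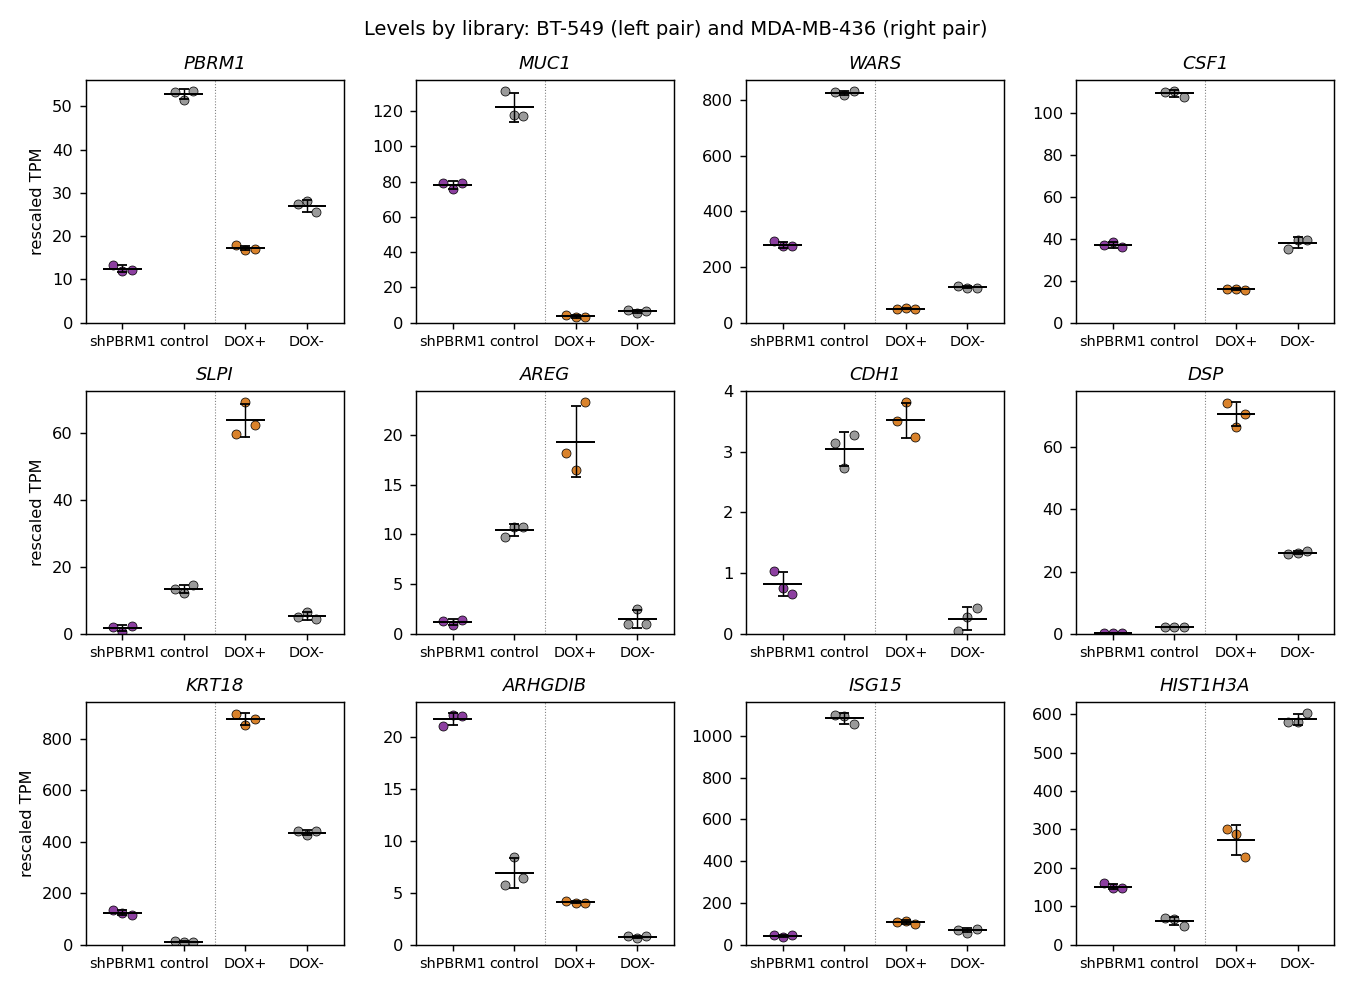
Rescaled TPM (linear axis from 0) of 12 genes in each library, for BT-549 cells (shPBRM1, control) and MDA-MB-436 cells (DOX+, DOX-). Points are libraries, the horizontal bar is the mean and the error bar the SD (n = 3); WARS and CSF1 are lower in both silenced groups, SLPI, AREG, CDH1 and DSP are lower with shPBRM1 and higher with DOX+, and KRT18 and ARHGDIB are higher in both.

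The IFN genes responded very differently in the experiments. Of 70 type I ISGs in the list, 52 were kept in both tables and all 52 fell with shPBRM1, of which 48 were called, with a median log2 fold of -3.33 beside -0.15 over all genes. With DOX+, 15 of them fell, 15 rose and 22 did not pass, with a median of 0.04 beside 0.01 over all genes. Of all genes, 49.5% fell and 5.46% were called lower with shPBRM1, and 25.6% fell and 27.1% rose with DOX+. The DOX+ counts of this list were near those shares. The difference was negative and passed for all 52. The median level of these genes was 9.22 TPM with shPBRM1 and 126 TPM in control cells, and 14.0 TPM in DOX+ cells and 13.8 TPM in DOX- cells. The ISGs of control BT-549 cells were therefore well above those of MDA-MB-436 cells in either state, on scales that were normalized apart. The filter admits a gene through 3 control libraries alone, so the BT-549 counts of this list are not independent of it. In bulk RNA, fewer cells that express a gene and less RNA per cell cannot be told apart.

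ISG15, a ubiquitin-like modifier, moved in opposite directions. ISG15 (chr1:1013497-1014540) was 44.9, 38.6 and 46.0 TPM with shPBRM1, against 1099.9, 1095 and 1054 TPM in control cells. It was 111, 115 and 97.5 TPM in DOX+ cells, against 72.2, 58.0 and 77.8 TPM in DOX- cells. Neither pair of groups overlapped, with a log2 fold of -4.62 for shPBRM1 and of 0.64 ± 0.103 (adjusted p = 0.0010) for DOX+. The study reports lower ISG15 expression after MUC1-C silencing in both BT-549 and MDA-MB-436 cells. The rise of ISG15 mRNA in these DOX+ libraries runs against that report for MDA-MB-436 cells, and the reason was not tested. PARP9, an ADP-ribosyltransferase-like protein of the IFN response, was 7.18, 6.65 and 6.98 TPM with shPBRM1, against 66.8, 64.2 and 67.1 TPM in control cells. It was 30.5, 29.5 and 27.0 TPM in DOX+ cells, against 16.5, 16.6 and 16.5 TPM in DOX- cells, the largest rise of the 52 genes (log2 fold 0.77).

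The cytosolic RNA sensors did not move together under DOX. DDX58, which encodes RIG-I, was 12.5, 11.2 and 12.01 TPM with shPBRM1, against 248, 237 and 248 TPM in control cells. It was 13.7, 15.3 and 15.1 TPM in DOX+ cells, against 23.7, 23.1 and 24.8 TPM in DOX- cells, a log2 fold of -0.66 (adjusted p = 4.9e-05) beside -4.25 with shPBRM1. IFIH1, which encodes MDA5, was 2.02, 3.37 and 2.39 TPM with shPBRM1, against 103, 108 and 111 TPM in control cells. In MDA-MB-436 cells IFIH1 was 9.68, 9.83 and 9.14 TPM with DOX, against 8.11, 9.93 and 9.52 TPM without it, groups that overlapped (log2 fold 0.05, adjusted p = 0.64). The study reports that MUC1-C silencing lowered both sensors in TNBC cells, whereas in these DOX+ libraries only DDX58 was lower. IFI44, a gene of the type I response, was the 1 member of the list called in both. It was 2.66, 3.32 and 2.84 TPM with shPBRM1, against 372, 345 and 358 TPM in control cells, and 2.25, 3.99 and 3.92 TPM in DOX+ cells, against 8.95, 6.36 and 8.38 TPM in DOX- cells. The log2 folds of IFI44 were -6.51 and -1.04.

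ISGs that fell with DOX+ had, as a group, larger shPBRM1 effects. The median shPBRM1 log2 fold was -4.32 for the 15 genes that fell with DOX+, -3.01 for the 22 that did not pass and -2.07 for the 15 that rose. This order is a description within 1 list. RSAD2, which encodes the antiviral enzyme viperin, had the most negative shPBRM1 fold of the list, -7.09, with 0.265, 0.357 and 0.263 TPM with shPBRM1, against 172, 170.4 and 184 TPM in control cells. Its DOX+ values were 2.36, 2.87 and 1.26 TPM, against 3.59, 2.01 and 3.10 TPM in DOX- cells, and these overlapped (log2 fold -0.32, adjusted p = 0.28). IFIT3, which binds viral RNA in a complex with its relatives, was 4.26, 3.18 and 4.45 TPM with shPBRM1, against 459, 447 and 475 TPM in control cells. It was 2.98, 2.11 and 3.17 TPM in DOX+ cells, against 7.70, 4.43 and 5.68 TPM in DOX- cells, with log2 folds of -6.55 and -0.87.

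**Figure D3:**
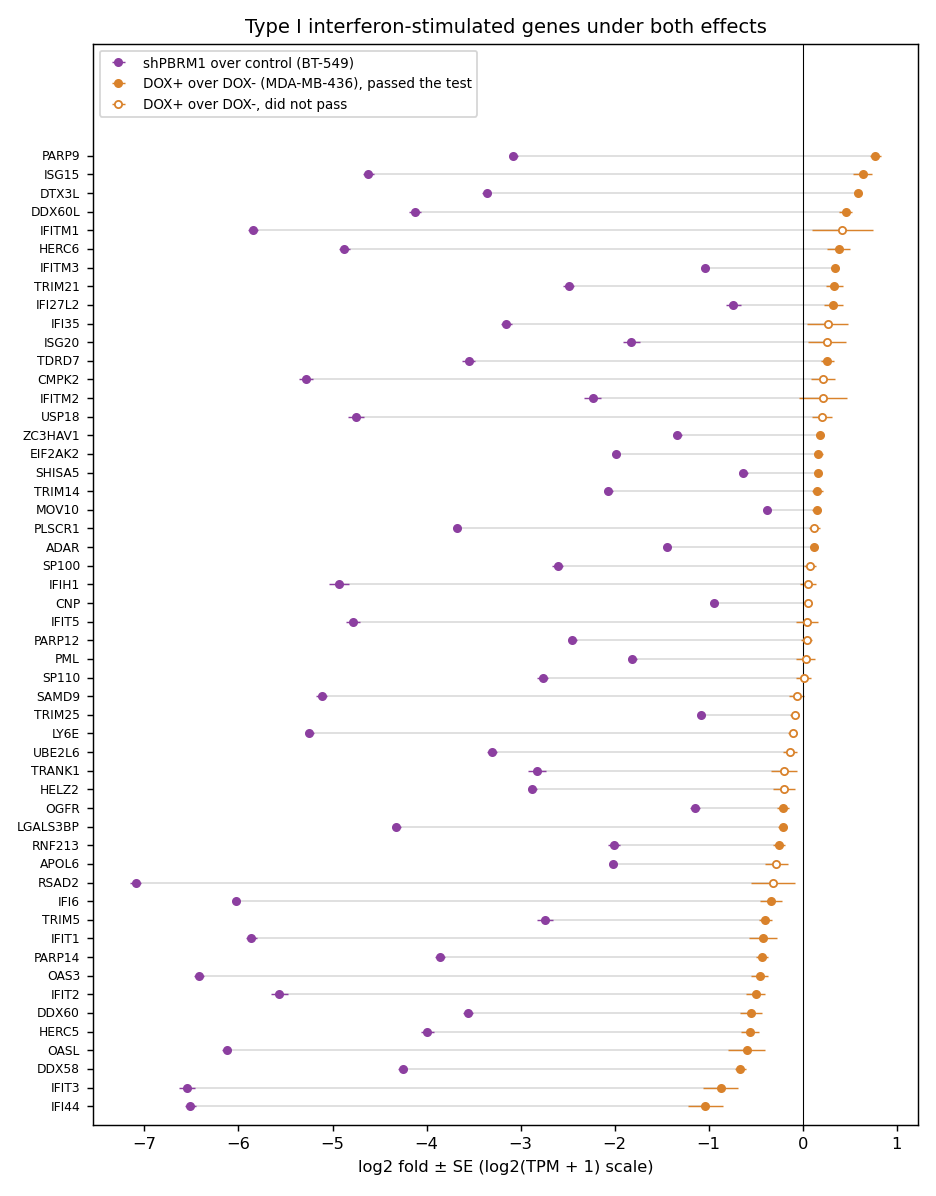
Log2 fold ± SE of the 52 type I ISGs measured in both tables, with shPBRM1 over control in BT-549 cells and with DOX+ over DOX- in MDA-MB-436 cells, ordered by the DOX+ fold; open circles are DOX+ folds that did not pass the test. All shPBRM1 folds lie below 0, and the DOX+ folds run between -1.04 (IFI44) and 0.77 (PARP9).

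Promoters of these genes are shown because the core of the ISRE was more frequent in them than in the other sets of genes compared here. RefSeq promoter windows (GRCh38.p14), which run for 250 bases before and 50 after the start of a gene, could be matched for 9337 of the 11748 genes. The motif searched was GAAANNGAA on either strand. Stretches of 6 windows are printed in the direction of the gene, with the matches, and their overlaps, in capitals.
ISG15 (chr1:1013369-1013419, plus strand): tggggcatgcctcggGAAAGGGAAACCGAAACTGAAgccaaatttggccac
IFIH1 (chr2:162318813-162318863, minus strand): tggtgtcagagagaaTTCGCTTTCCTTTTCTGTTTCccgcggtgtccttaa
IFIT3 (chr10:89327827-89327899, plus strand): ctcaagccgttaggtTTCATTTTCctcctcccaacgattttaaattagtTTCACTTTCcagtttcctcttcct
IFI44 (chr1:78649757-78649788, plus strand): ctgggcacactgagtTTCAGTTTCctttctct
RSAD2 (chr2:6865791-6865829, plus strand): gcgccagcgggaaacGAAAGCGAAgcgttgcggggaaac
OAS3 (chr12:112938316-112938354, plus strand): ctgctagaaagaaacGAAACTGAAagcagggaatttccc

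At least 1 match was found in 6.30% of all matched windows, in 27 of 45 windows of the type I ISGs (60%), and in 67 of 474 windows of genes called lower with shPBRM1 (14.1%). The share was 4.81% of the 104 windows of genes called lower with DOX+ and 3.17% of the 63 windows of genes called higher with DOX+. Genes called higher with shPBRM1 had a match in 12 of 78 windows (15.4%). Among the ISGs, a match was present in 11 of 13 windows of the genes that fell with DOX+, in 8 of 17 windows of those that did not pass, and in 8 of 15 windows of those that rose. ISG15 and IFIH1 carried a match, and DDX58, IRF1, MUC1, PBRM1 and WARS did not in this window. A match is a description of these letters and not evidence of binding.

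Transcription factors of the pathway named here fell with shPBRM1 and either did not pass or rose with DOX+. IRF1 was 33.5, 31.7 and 29.2 TPM with shPBRM1, against 109, 108 and 109 TPM in control cells. It was 5.67, 5.22 and 5.87 TPM in DOX+ cells, against 6.01, 5.14 and 5.25 TPM in DOX- cells, with overlapping groups and a log2 fold of 0.03 (adjusted p = 0.83) beside -1.76 with shPBRM1. The study reports lower IRF1 expression in TNBC cells after MUC1-C silencing, which these MDA-MB-436 libraries did not show. IRF9, the DNA-binding subunit that pairs with STAT2, was 31.7, 32.3 and 29.6 TPM with shPBRM1, against 156, 134 and 142 TPM in control cells. In DOX+ cells IRF9 was 32.6, 34.3 and 34.8 TPM, against 22.2, 18.3 and 21.0 TPM in DOX- cells, a rise of 0.70 on the log2 scale. IRF7, an inducible activator of type I IFN genes, had log2 folds of -3.14 and 0.46, and NMI, a STAT-binding protein, of -1.78 and 0.74. Of the 23 genes of the IFN signalling list, 15 fell and 4 rose with shPBRM1, and 5 fell and 9 rose with DOX+. Over all genes, 49.5% fell and 23.3% rose with shPBRM1, and 25.6% fell and 27.1% rose with DOX+.

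Genes of the IFN-gamma response showed the same contrast. Of 33 listed, 16 were kept in both tables. With shPBRM1 15 fell (median log2 fold -1.45), and with DOX+ 4 fell and 5 rose (median 0.00). The shares of all genes were 49.5% fallen with shPBRM1, and 25.6% fallen and 27.1% risen with DOX+. CFB, complement factor B, was 0.412, 0.329 and 0.543 TPM with shPBRM1, against 38.1, 36.5 and 35.9 TPM in control cells. It was 5.39, 5.60 and 4.95 TPM in DOX+ cells, against 2.53, 2.45 and 3.07 TPM in DOX- cells, with log2 folds of -4.73 and 0.78. IFI30, which reduces disulfide bonds in lysosomes for antigen presentation, had log2 folds of -3.16 and 0.96, and the guanylate-binding protein gene GBP1 of -5.25 and -0.02 (adjusted p = 0.93). WARS was the member of this list that fell in both experiments past the fold threshold.

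MHC class I genes fell widely with shPBRM1 and slightly, or not past the test, with DOX+. Of 15 kept in both tables, 13 fell and 0 rose with shPBRM1 (median log2 fold -1.52). With DOX+ 6 fell and 0 rose (median -0.12), and 4 fell in both. Beside these stand the 49.5% of all genes that fell with shPBRM1 and the 25.6% that fell with DOX+. HLA-B, a class I heavy chain, was 3.59, 3.30 and 3.17 TPM with shPBRM1, against 96.6, 94.2 and 93.9 TPM in control cells. It was 7.47, 7.002 and 7.05 TPM in DOX+ cells, against 9.73, 9.28 and 9.55 TPM in DOX- cells. All silenced libraries lay below all reference libraries, with log2 folds of -4.46 and -0.36. HLA-C had log2 folds of -2.45 and -0.07 (adjusted p = 0.23 for DOX+), and NLRC5, the transactivator of class I genes, of -2.73 and -0.10 (adjusted p = 0.47). HLA genes are close paralogs, and how reads were shared among them is not stated in those sources.

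The NF-kB and cytokine list moved in the same direction more than the IFN lists. Of 22 genes, 19 fell and 2 rose with shPBRM1 (median log2 fold -0.68), and 12 fell and 2 rose with DOX+ (median -0.38); 9 fell in both. Over all genes, 49.5% fell with shPBRM1 and 25.6% with DOX+. IL6, a proinflammatory cytokine, was 26.4, 27.4 and 27.2 TPM with shPBRM1, against 465, 457 and 460.2 TPM in control cells. In MDA-MB-436 cells IL6 was 63.6, 63.7 and 53.4 TPM with DOX, against 69.1, 65.8 and 58.7 TPM without it, and these groups overlapped (log2 fold -0.10, adjusted p = 0.33). BIRC3, an inhibitor of apoptosis, had log2 folds of -0.71 and -1.32 and CXCL8, a neutrophil chemokine, of -0.66 and -1.14. NFKBIE, which encodes an inhibitor of NF-kB, was 10.3, 9.88 and 9.05 TPM with shPBRM1, against 10.6, 9.97 and 10.0 TPM in control cells. It was 2.13, 2.35 and 2.35 TPM in DOX+ cells, against 5.04, 7.85 and 7.25 TPM in DOX- cells, with log2 folds of -0.06 (adjusted p = 0.42) and -1.22 (adjusted p = 2.2e-04). Members of this list were thus led by IL6 in one line and by NFKBIE and BIRC3 in the other.

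Epithelial genes rose with DOX+, whereas their directions with shPBRM1 were mixed. Of 50 listed, 21 were kept in both tables; 17 rose and 0 fell with DOX+ (median log2 fold 0.85), whereas 13 fell and 5 rose with shPBRM1 (median -0.39, or -0.03 with TPM as deposited, where that of all genes was -0.04). Over all genes 27.1% rose with DOX+, and 49.5% fell with shPBRM1. Opposite directions, lower with shPBRM1 and higher with DOX+, were found for 10 genes, and 5 rose in both. ELF3, an epithelial ETS factor, was 2.77, 3.22 and 2.55 TPM with shPBRM1, against 5.44, 5.22 and 5.21 TPM in control cells. It was 18.5, 18.8 and 18.4 TPM in DOX+ cells, against 3.83, 4.53 and 4.43 TPM in DOX- cells, with log2 folds of -0.71 and 1.90. Promoters of this group are shown for the E-box CACCTG, searched on both strands, the sequence bound by the ZEB and SNAI repressors of epithelial genes. This motif was chosen after the values were seen. The match is in capitals, and the windows are in the direction of the gene (RefSeq, GRCh38.p14).
DSP (chr6:7541571-7541606, plus strand): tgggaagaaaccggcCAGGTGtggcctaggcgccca
ELF3 (chr1:202010452-202010487, plus strand): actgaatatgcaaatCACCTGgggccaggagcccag
OCLN (chr5:69492499-69492534, plus strand): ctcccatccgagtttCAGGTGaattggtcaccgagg

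An E-box was present in 7 of 13 matched windows of the epithelial list (53.8%) and in 17.2% of all matched windows. It was in 21 of 63 windows of genes called higher with DOX+ (33.3%), in 9.62% of the windows of genes called lower with DOX+, and in 16.5% of the windows of genes called lower with shPBRM1. These shares are descriptions.

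Of these repressors, ZEB1 and ZEB2 fell in both experiments, SNAI2 fell with shPBRM1 and rose with DOX+, and SNAI1 is not described. ZEB1 was 40.2, 41.3 and 40.4 TPM with shPBRM1, against 66.7, 64.8 and 68.9 TPM in control cells, and 5.68, 5.99 and 6.02 TPM in DOX+ cells, against 11.96, 12.5 and 10.8 TPM in DOX- cells. ZEB2 was 10.9, 10.6 and 10.3 TPM with shPBRM1, against 19.2, 18.6 and 19.2 TPM in control cells, and 9.62, 9.21 and 8.73 TPM in DOX+ cells, against 34.7, 36.2 and 33.9 TPM in DOX- cells. No groups overlapped, and the log2 folds were -0.70 and -0.89 for ZEB1 and -0.79 and -1.82 for ZEB2. SNAI2, which encodes Slug, was 29.8, 25.4 and 27.9 TPM with shPBRM1, against 55.1, 50.6 and 49.9 TPM in control cells. It was 36.7, 37.3 and 36.5 TPM in DOX+ cells, against 15.97, 18.2 and 16.4 TPM in DOX- cells, with log2 folds of -0.88 and 1.08. Of the 25 mesenchymal genes, 16 fell and 5 rose with shPBRM1 and 11 fell and 5 rose with DOX+. The shares of all genes were 49.5% fallen and 23.3% risen with shPBRM1, and 25.6% fallen and 27.1% risen with DOX+. VIM had log2 folds of 0.17 and -0.83, and FN1, which encodes fibronectin, of -1.48 and 0.40.

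Basement membrane genes included some with opposite effects and some that fell in both. Of 24 collagen and laminin genes, 16 fell and 4 rose with shPBRM1 (median log2 fold -0.77), and 10 fell and 6 rose with DOX+ (median -0.06). Over all genes, 49.5% fell and 23.3% rose with shPBRM1, and 25.6% fell and 27.1% rose with DOX+. COL4A2, a chain of collagen IV, was 132, 133 and 130.3 TPM with shPBRM1, against 516, 513 and 502 TPM in control cells. It was 23.8, 23.4 and 23.3 TPM in DOX+ cells, against 14.0, 13.7 and 15.1 TPM in DOX- cells, with log2 folds of -1.95 and 0.68. LAMB3, a chain of laminin-332, had log2 folds of -0.81 and 1.36, and NID2, a nidogen, of -1.74 and 0.51. AGRN, which encodes the proteoglycan agrin, was 17.8, 17.9 and 17.4 TPM with shPBRM1, against 128, 125 and 122 TPM in control cells. It was 62.8, 64.2 and 64.1 TPM in DOX+ cells, against 72.7, 74.4 and 82.7 TPM in DOX- cells, with log2 folds of -2.75 and -0.26 (adjusted p = 0.0027 for DOX+). Agrin mRNA thus fell in both lines, far more with shPBRM1. The interstitial and microfibrillar chains COL3A1 and COL6A1, described above, fell in both.

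Histone genes rose with shPBRM1 and fell with DOX+. Of 51 replication-dependent histone genes, 48 rose (38 called) and 1 fell with shPBRM1, with a median log2 fold of 1.25. With DOX+, 40 fell and 1 rose, with a median of -0.43, and 37 genes combined the opposite directions. The difference was positive and passed for 50 of 51. Over all genes, 23.3% rose and 0.860% were called higher with shPBRM1, and 25.6% fell with DOX+. HIST1H3B was 1616, 1631 and 1717 TPM with shPBRM1, against 402, 478 and 436 TPM in control cells. It was 1485, 1489.5 and 1289.8 TPM in DOX+ cells, against 1916, 1826 and 1810.3 TPM in DOX- cells, with log2 folds of 1.92 and -0.38. HIST1H2BB had log2 folds of 1.38 and -0.998 and HIST1H2AB of 1.56 and -0.67. Copies of these genes are nearly identical, so single members are uncertain. Their mRNAs end in a stem-loop and mostly lack a poly(A) tail, whereas the libraries were selected for poly(A) RNA, and the part of tailed transcripts in this result was not tested. The share of short noncoding RNAs was 75.7% to 77.3% with shPBRM1 and 76.4% to 79.2% in control cells.

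Mitotic genes showed the same pair of directions with smaller folds, where 23.3% of all genes rose with shPBRM1 and 25.6% fell with DOX+. Of 38 genes, 37 rose and 1 fell with shPBRM1 (median log2 fold 0.65), and 21 fell and 2 rose with DOX+ (median -0.19); 20 rose with shPBRM1 and fell with DOX+, and the difference was positive and passed for all 38. ESPL1, which encodes separase, was 29.0, 25.2 and 25.03 TPM with shPBRM1, against 12.9, 12.9 and 11.4 TPM in control cells. It was 10.7, 10.1 and 11.5 TPM in DOX+ cells, against 21.3, 20.3 and 22.5 TPM in DOX- cells, with log2 folds of 1.03 and -0.93. CCNA2, cyclin A2, was 119, 123 and 121 TPM with shPBRM1, against 62.4, 60.4 and 61.9 TPM in control cells, and 81.4, 77.2 and 83.8 TPM in DOX+ cells, against 92.0, 95.2 and 98.7 TPM in DOX- cells. Neither gene's groups overlapped. DNA replication genes did not share this contrast, since 28 rose and 7 fell of 41 with shPBRM1 (median 0.24) and 15 rose and 7 fell with DOX+ (median 0.08). Of 43 double-strand break repair genes, 23 rose and 13 fell with shPBRM1 and 10 rose and 11 fell with DOX+. CDKN1A, the cyclin-dependent kinase inhibitor p21, was 12.1, 13.5 and 13.5 TPM with shPBRM1, against 39.9, 42.6 and 41.6 TPM in control cells. It was 43.6, 44.0 and 48.9 TPM in DOX+ cells, against 27.3, 27.3 and 29.3 TPM in DOX- cells, with log2 folds of -1.59 and 0.68. Of the 24 p53 targets that include it, 15 fell and 5 rose with shPBRM1 and 6 fell and 7 rose with DOX+. Over all genes, 49.5% fell and 23.3% rose with shPBRM1, and 25.6% fell and 27.1% rose with DOX+. The DOX+ counts of the repair genes and p53 targets were near these shares.

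Metallothioneins are small proteins that bind zinc and copper, and 6 genes of their list were kept in both tables. These were 4 metallothionein genes, the zinc exporter gene SLC30A1 and MTF1, the zinc-sensing factor that induces them. All 6 fell with shPBRM1 (median log2 fold -0.92) and all 6 rose with DOX+ (median 0.68). Among all genes 49.5% fell with shPBRM1 and 27.1% rose with DOX+. MT1E was 5.15, 4.20 and 5.86 TPM with shPBRM1, against 84.6, 71.9 and 67.0 TPM in control cells. It was 2494, 2486 and 2172 TPM in DOX+ cells, against 1303, 1299 and 1224 TPM in DOX- cells, with log2 folds of -3.64 and 0.90. MT1X was 315, 298 and 277 TPM with shPBRM1, against 924, 892 and 915 TPM in control cells. In DOX+ cells MT1X was 1108, 1104 and 1047 TPM, against 596, 637 and 575 TPM in DOX- cells. Metallothionein genes are close copies of each other, and single members are uncertain.

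NRF2 targets, the genes of the antioxidant response, fell in both. Of 21 genes, 15 fell and 4 rose with shPBRM1 (median log2 fold -0.44), and 14 fell and 3 rose with DOX+ (median -0.30); 11 fell in both, HMOX1 and AKR1C1 among them, where 49.5% of all genes fell with shPBRM1 and 25.6% with DOX+. OSGIN1, an oxidative stress-induced growth inhibitor, was 2.01, 1.90 and 1.75 TPM with shPBRM1, against 10.1, 8.82 and 10.2 TPM in control cells. It was 11.02, 11.8 and 10.75 TPM in DOX+ cells, against 17.3, 12 and 13.8 TPM in DOX- cells, and the log2 folds were -1.89 and -0.32. Of 33 genes of the integrated stress response, which follows phosphorylation of eIF2alpha, 23 fell and 4 rose with shPBRM1. With DOX+, 7 fell and 13 rose, and 11 fell with shPBRM1 and rose with DOX+. Over all genes, 49.5% fell with shPBRM1, and 25.6% fell and 27.1% rose with DOX+. Of the 11748 genes, 1469 fell with shPBRM1 and rose with DOX+. ATF3, a stress-induced transcription factor, was 21.9, 20.5 and 20.8 TPM with shPBRM1, against 59.7, 59.1 and 58.6 TPM in control cells. ATF3 was 20.7, 22.7 and 20.9 TPM in DOX+ cells, against 14.1, 12.1 and 11.6 TPM in DOX- cells, with log2 folds of -1.45 and 0.72. DDIT3, which encodes CHOP, had log2 folds of -1.60 and 0.01 (adjusted p = 0.97).

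Genes of hypoxia and glycolysis were lower with shPBRM1 in 23 of 31 (7 rose, median log2 fold -0.28) and with DOX+ in 12 (8 rose, median -0.08). Among all genes 49.5% fell and 23.3% rose with shPBRM1, and 25.6% fell and 27.1% rose with DOX+. NDRG1, a hypoxia-induced gene, was 6.13, 4.83 and 4.78 TPM with shPBRM1, against 41.9, 40.5 and 44.0 TPM in control cells. It was 63.1, 66.3 and 62.5 TPM in DOX+ cells, against 73.9, 73.2 and 75.5 TPM in DOX- cells, with log2 folds of -2.79 and -0.21. PGAM1, a glycolytic mutase, was 187, 185 and 181 TPM with shPBRM1, against 153, 153 and 152 TPM in control cells. It was 104, 102 and 105 TPM in DOX+ cells, against 305, 301 and 299 TPM in DOX- cells, with log2 folds of 0.27 and -1.53. The glycolytic genes LDHA (0.35 and -0.84) and GAPDH (0.22 and -0.43) had folds of the same pair of signs as PGAM1, and VEGFA, the vascular growth factor, had log2 folds of -1.35 and 0.55.

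Nuclear genes of the respiratory chain rose in both. Of 71 genes, 53 rose and 4 fell with shPBRM1 (median log2 fold 0.28), 48 rose and 0 fell with DOX+ (median 0.19), and 37 rose in both, where 23.3% of all genes rose with shPBRM1 and 27.1% with DOX+. NDUFA4, a subunit of the respiratory chain, was 229, 228 and 244 TPM with shPBRM1, against 129, 134 and 128 TPM in control cells, and 229.5, 237 and 227 TPM in DOX+ cells, against 195, 175 and 187 TPM in DOX- cells. The folds of this list were all under 1 in size. DOX is also an inhibitor of mitochondrial translation, and the part of the drug in the MDA-MB-436 result cannot be told apart from that of MUC1. Cytosolic ribosomal protein genes rose with shPBRM1 in 68 of 78 (1 fell, median 0.28), while with DOX+ 19 fell and 9 rose (median -0.04). The share of all genes that fell with DOX+ was 25.6%.

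Calls among chromatin regulators are given beside the shares over all genes. Those shares were 5.46% lower and 0.860% higher with shPBRM1, and 1.23% lower and 0.834% higher with DOX+. At the adjusted p alone, 49.5% of all genes fell and 23.3% rose with shPBRM1, and 25.6% fell and 27.1% rose with DOX+. The lists are too small to tell a low count from these shares. Of 27 SWI/SNF subunit genes, 14 fell and 6 rose with shPBRM1 (median log2 fold -0.10) and 9 fell and 10 rose with DOX+ (median -0.05), and the sign of the shPBRM1 median depended on the scaling. ARID2, a DNA-binding subunit of PBAF beside PBRM1, was 29.7, 27.0 and 27.2 TPM with shPBRM1, against 21.7, 20.3 and 21.97 TPM in control cells. It was 20.7, 19.05 and 21.2 TPM in DOX+ cells, against 29.0, 29.5 and 29.0 TPM in DOX- cells, with log2 folds of 0.38 and -0.50. PBRM1 itself was the single member called with shPBRM1, and 0 were called with DOX+. DNMT3B, a de novo DNA methyltransferase, was 5.42, 4.11 and 4.59 TPM with shPBRM1, against 2.19, 2.37 and 2.57 TPM in control cells. It was 4.97, 5.06 and 6.79 TPM in DOX+ cells, against 10.8, 11.4 and 10.3 TPM in DOX- cells, with log2 folds of 0.75 and -0.85. PCGF5, a subunit of a Polycomb complex, was 1.62, 1.80 and 1.71 TPM with shPBRM1, against 7.73, 6.88 and 6.98 TPM in control cells. It was 28.9, 27.0 and 28.7 TPM in DOX+ cells, against 31.5, 33.7 and 30.4 TPM in DOX- cells, with log2 folds of -1.60 and -0.17 (adjusted p = 0.030 for DOX+). PCGF5 was the single Polycomb or DNA methylation gene called with shPBRM1, and 0 were called with DOX+. Of 33 such genes, 12 fell and 9 rose with shPBRM1 and 11 fell and 7 rose with DOX+. Of 15 genes associated with stem cells, 10 fell and 4 rose with shPBRM1 and 7 fell and 6 rose with DOX+. HEY1, a target of Notch, had log2 folds of -3.76 and -0.53, and the Notch ligand gene JAG1 of -2.17 and 0.42.

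Other signalling lists were mixed. Of 25 genes of the EGF receptor and its ERK feedback, 19 fell and 3 rose with shPBRM1 (median log2 fold -0.55) and 11 fell and 5 rose with DOX+ (median -0.18), with AREG and LRIG1 at the ends of the DOX+ range. LRIG1, which encodes an inhibitor of receptor tyrosine kinases, was 3.53, 2.98 and 2.93 TPM with shPBRM1, against 1.504, 1.32 and 1.61 TPM in control cells. It was 7.29, 7.46 and 6.95 TPM in DOX+ cells, against 32.0, 33.1 and 30.6 TPM in DOX- cells. The log2 folds of LRIG1 were 0.74 and -1.998, the largest positive difference among the genes named by the rule, 2.74. ID3, a target of BMP signalling, had log2 folds of -0.48 and 1.61 and ACTA2, smooth muscle actin, of -2.72 and 0.41. Numbers fallen and risen with shPBRM1, then with DOX+, were 11 and 4, then 8 and 7, of 22 TGF-beta pathway genes, and 9 and 7, then 9 and 6, of 22 YAP and TEAD targets. They were 8 and 5, then 6 and 7, of 14 contractile genes. For 22 genes of the unfolded protein response they were 12 and 3, then 8 and 3. For 30 genes of cholesterol and lipid synthesis they were 11 and 8, then 14 and 6. Of all genes, 49.5% fell and 23.3% rose with shPBRM1, and 25.6% fell and 27.1% rose with DOX+. The 11 of 22 TGF-beta pathway genes that fell with shPBRM1 were near that share.

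**Figure D4:**
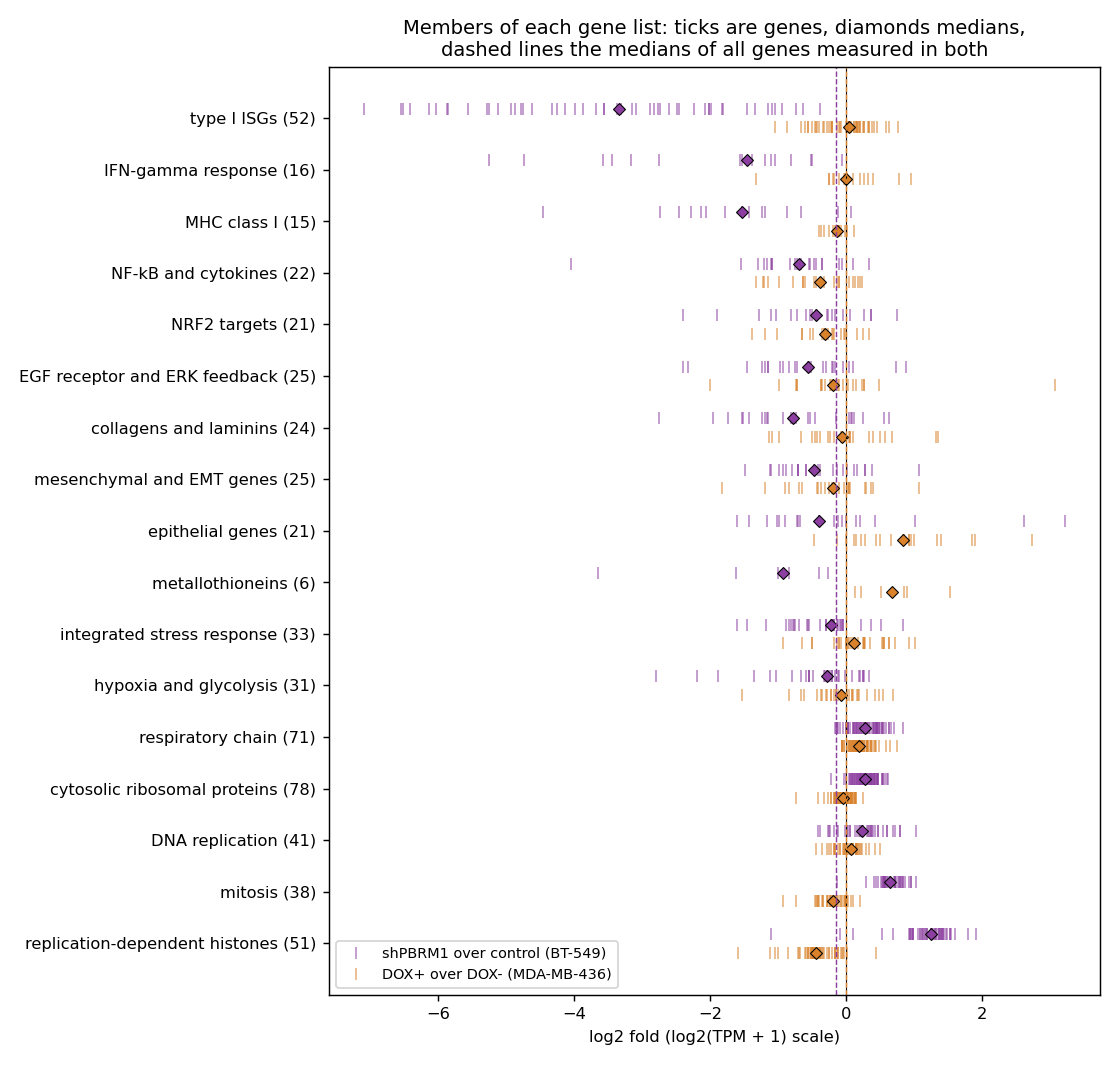
Log2 folds (log2(TPM + 1) scale) of the members of 17 gene lists with shPBRM1 over control in BT-549 cells (upper row of each list) and with DOX+ over DOX- in MDA-MB-436 cells (lower row), with the number of genes in brackets. Ticks are genes, diamonds are medians, and dashed lines are the medians of all genes; metallothioneins, epithelial genes, histones and mitotic genes have medians on opposite sides of 0, and NRF2 targets, NF-kB genes and the respiratory chain have medians on the same side.

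The most negative differences between the effects were mostly in ISGs. Behind RSAD2 (difference -6.77) stood IFITM1, a membrane protein that blocks virus entry (-6.27), OAS3, which makes 2-5A (-5.96), SLPI, described above (-5.88), IFI6 (-5.69), IFIT3 (-5.68) and OASL (-5.53). IFITM1 was 98.7, 90.6 and 84.3 TPM with shPBRM1, against 5281, 5365 and 5227 TPM in control cells. It was 2.46, 1.31 and 3.06 TPM in DOX+ cells, against 0.524, 1.42 and 2.66 TPM in DOX- cells, with overlapping groups. The most positive differences were those of LOC100507002 (2.96), LRIG1 (2.74), ADAMTS3 (2.50), APLN (2.42), HIST1H3A (2.40) and WNT5B (2.38). WNT5B, a secreted Wnt ligand, was 154, 145 and 143 TPM with shPBRM1, against 94.7, 83.6 and 83.4 TPM in control cells. It was 6.96, 5.13 and 7.33 TPM in DOX+ cells, against 20.8, 22.006 and 23.2 TPM in DOX- cells, with log2 folds of 0.75 and -1.63. APLN, the ligand of the apelin receptor, had log2 folds of 1.63 and -0.79 and CD83, an immunoglobulin family protein, of 1.69 and -0.64.

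Many genes could not enter the comparison because they were kept in only 1 of the tables. Of 879 genes called lower with shPBRM1 in the BT-549 table, 237 were not kept in the MDA-MB-436 table, and neither were 22 of 123 called higher. Of the 237, 5 carry a symbol altered in the BT-549 table (a suffix of zeros, found on 48 symbols) and for that reason matched no gene. Among them were 16 type I ISGs, 9 genes of the IFN-gamma list and 3 MHC class I genes, all lower with shPBRM1. MX1, an antiviral GTPase, was 1.61, 1.44 and 0.944 TPM with shPBRM1, against 1105, 1105.6 and 1115 TPM in control cells (log2 fold -8.91), and did not exceed 0.870 TPM in MDA-MB-436 cells. IDO1, the enzyme that breaks down tryptophan, was 1.104, 0.750 and 0.502 TPM with shPBRM1, against 70.4, 68.1 and 65.9 TPM in control cells, and was listed at 0 in every MDA-MB-436 library. The IFN contrast between the experiments was thus limited to genes with a measurable level in MDA-MB-436 cells.

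In the MDA-MB-436 table, 50 of 195 genes called lower and 85 of 183 called higher with DOX+ were not kept in the BT-549 table. SFN, an epithelial 14-3-3 protein, was 140.4, 144 and 133 TPM in DOX+ cells, against 2.22, 1.21 and 1.505 TPM in DOX- cells (log2 fold 5.74), and did not exceed 0.647 TPM in BT-549 cells. EPCAM, an epithelial adhesion molecule, was 24.7, 22.8 and 25.7 TPM in DOX+ cells, against 5.31, 6.70 and 4.36 TPM in DOX- cells (log2 fold 1.99). CLDN3, an epithelial claudin, went the other way and averaged 4.03 TPM in DOX+ cells and 9.76 TPM in DOX- cells (log2 fold -1.08). The direction of these genes under PBRM1 silencing could not be measured.

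The third experiment of the study placed these values in context. Over 11548 genes kept in all 3 tables, the shPBRM1 and DOX+ folds had r = 0.011. The shPBRM1 fold and the fold of an IRF1 shRNA over its own control, both in BT-549 cells with separate control libraries, had r = 0.328, and the IRF1 shRNA and DOX+ folds had r = 0.043. Spearman's rho was 0.035 for shPBRM1 and DOX+, 0.142 for shPBRM1 and the IRF1 shRNA and 0.064 for the IRF1 shRNA and DOX+, and the shares with the same sign were 51.4%, 51.3% and 53.2% in that order. The pair that shares the cell line thus had the highest r and rho, but by sign it was no more concordant than the others. Line and target cannot be told apart for the other pairs.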

How the data were processed

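Stranded poly(A) RNA-seq libraries of 12 cultures were used, in 4 groups of 3 named from the sample labels. The comparison with the IRF1 shRNA also used the libraries of that experiment, which were rescaled, filtered and fitted in the same way. The submitters' processing notes name STAR, GRCh38 and DESeq2 without versions; neither the annotation nor the program that produced TPM is named in the sources read. The authors deposited TPM per gene and library, summing to a fixed total with short noncoding RNAs included, and tables of DESeq2 results. Of these results only the mean normalized counts deposited by the authors were summed; their fold changes, standard errors, test scores and p-values were not used. The control columns of the PBRM1 table name only the cell line; they were assigned to the control shRNA group from the labels of that experiment and are called a, b and c.

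Short noncoding RNAs were removed, each library was rescaled to its former total, and log2(TPM + 1) was fitted within each table in R 4.3.3 by limma 3.58.1 (lmFit and trended eBayes; two-sided p-values, adjusted by Benjamini-Hochberg over all 12703 genes of the PBRM1 table or 13399 of the MUC1 table with at least 1 TPM in 3 of 6 libraries). A joint fit of 4 group means over 11748 genes tested the difference of the effects. "Rose", "fell" and "passed" mean an adjusted p under 0.05. As the values are TPM and not counts, depth per library is unknown and counting intervals are not given. The fits were tested on simulated data.

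Genes named were the 9 that the study follows; up to 8 genes per pair of directions among those called in both without overlap of groups, by the smaller absolute fold; the 6 largest differences each way among genes not yet named; and up to 4 members per list. Uncharacterized loci were passed over, and a few other genes were chosen after their values were seen (BIRC3, CLDN3, COL3A1, COL6A1, CXCL8, EPCAM, GAPDH, IFI44, IGFBP6, KRT8, LDHA, LOC100507002, MX1, OCLN, PARP9, PTX3, SFN, TXNIP, VIM, ZEB1, and those closest to the threshold). The members and lists were chosen with earlier results of these data known. Alternatives covered the scaling, pseudocount, filter, variance model, replicate block and each library left out. Promoters came from RefSeq (GRCh38.p14). Figures were drawn with matplotlib 3.10.9.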

Additional observations from a re-analysis of the deposited data

Results flagged for a closer look

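Effects in opposite directions were found for 15 genes called lower with shPBRM1 and higher with DOX+, led by SLPI and AREG, and for 3 genes called higher with shPBRM1 and lower with DOX+, HIST1H3A and ADAMTS3 among them. In each of these genes every silenced library moved one way in BT-549 cells and the other way in MDA-MB-436 cells, and the difference between the effects passed the joint limma test. Of the 15 genes, 4 were under 1 TPM in all shPBRM1 libraries and 3 in all DOX- libraries. The filter kept each of those through the other group of that table alone. In all, 1274 genes had effects that differed by more than 1 on the log2 scale at an adjusted p under 0.05 in that test. Target, line, mode of silencing and medium differ together, so their parts cannot be told apart. No outlier test was run on groups of 3 libraries.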

How the results depend on the processing

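The correlation of the effects (0.0049) stayed close to 0 throughout: it was 0.02988 as Spearman's rho, -0.00933 over genes with an adjusted p under 0.05 in both fits, -0.01337 with a mean of at least 5 TPM in each table, and between 0.001159 (without DOX- replicate 3) and 0.0168 (without DOX+ replicate 2) when libraries were left out. With the adjusted p alone as the rule, 2375 genes changed in the same direction and 2258 in opposite directions. With TPM as deposited, 420 genes were called with shPBRM1, 15 in both in the same direction, 8 in opposite directions, and 797 effects differed. A pseudocount of 0.1 gave 393 calls with DOX+, and 60 and 40 called in both. A mean of at least 5 TPM, which tests fewer genes, gave 465 calls with shPBRM1, 135 with DOX+, 13 and 8 in both, and 833 differing effects. Leaving out a library gave 648 to 766 calls with shPBRM1, 221 to 256 with DOX+, 19 to 29 and 13 to 18 in both, and 1152 to 1280 differing effects. Differing effects split into 931 negative and 343 positive; positive ones numbered 527 with median-ratio and 579 negative against 571 positive with quantile scaling.

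Signs turned for few named genes: the difference of LINC00968 was 0.009029 and that of GGT5 0.2544 with TPM as deposited, that of ARHGDIB -0.637 with a pseudocount of 0.1, and the shPBRM1 fold of LTBP3 was 0.04026 with median-ratio and that of NFKBIE 0.2527 with quantile scaling; the cause was not tested. Of 139 differences of named genes 129, and of 278 folds 252, kept direction and side of the threshold under every alternative. The ISG, IFN-gamma, MHC class I, NF-kB, epithelial, histone, mitosis, metallothionein, NRF2, ribosomal and respiratory chain medians kept their direction in both experiments under all 4 scalings.

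Same-numbered libraries of the PBRM1 experiment deviated together weakly (r = 0.0999, 0.0881 and 0.127), and each correlated best with its own number, a hint from the data only; in the MUC1 experiment r was 0.0172, -0.0319 and -0.00266. A replicate block gave 743 calls with shPBRM1, 245 with DOX+, 28 and 18 in both, 1281 differing effects and a correlation of 0.004887. TPM carries no depth, so the precision of weakly expressed genes is limited to an unknown degree.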
